A study of Mus musculus with 12 samples.

Results

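Gene expression in mouse rod photoreceptors was compared between 6 libraries that had received a plasmid directed at or carrying mouse Csnk2a1 and 6 libraries that had received the matching control plasmid, with the kind of plasmid kept as a block. All 12 of the 12 libraries of the series were used, 6 with mCsnk2a1 in their title and 6 with Control. The value estimated for each gene was the difference that the 2 kinds of plasmid shared. Retinas had been electroporated, which drives plasmid into cells with an electric pulse, and were taken apart with papain at postnatal day 8. Cells positive for green fluorescent protein were picked by hand, and 50 to 100 of them made a library of total RNA. No source used here names the mouse strain.

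The shRNA arm held 3 libraries of shRNA mCsnk2a1, a short hairpin RNA against Csnk2a1, and 3 of shRNA Control. The pcDNA4c arm held 3 libraries of pcDNA4c mCsnk2a1, a plasmid of the mammalian expression vector pcDNA4c named with Csnk2a1, and 3 of pcDNA4c Control. All 4 groups had been electroporated and collected at postnatal day 8, and no untreated retina was among them. No source used here names the promoters of these plasmids or of the fluorescent protein. The labels call the 3 samples of a group independent, but do not say that they came from separate animals, so every p-value rests on how far these samples spread, which may be technical.

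Csnk2a1 encodes a catalytic subunit of protein kinase CK2, a serine/threonine kinase that phosphorylates many substrates, and the series concerns its bearing on transcription driven by NRL. NRL is the leucine zipper factor that commits photoreceptor precursors to the rod fate, and with the homeodomain factor CRX and the nuclear receptor NR2E3 it drives the genes of phototransduction in rods. A hairpin is a tool to lower a gene and an expression vector a tool to raise it. The shared difference collects what both plasmids named Csnk2a1 had in common against their controls, and the difference between the arms collects what they did not.

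The targeted gene was read in every library first. Csnk2a1 (ENSMUSG00000074698, chr2:152226839-152281852 in mm10, + strand) stood at 12.0, 22.2 and 36.0 CPM (estimated counts scaled to the size of the library) in shRNA mCsnk2a1 and at 66.9, 57.2 and 8.51 CPM in shRNA Control. In the pcDNA4c arm it stood at 49.9, 145 and 122 CPM with mCsnk2a1 and at 86.6, 25.0 and 28.3 CPM with Control. The groups overlapped in both arms. The log2 difference was -0.92 in the shRNA arm and 1.18 in the pcDNA4c arm, so the shared difference was near 0 (log2 0.14, SE 0.68, edgeR adjusted p 0.999), and the test of the difference between the arms gave an edgeR adjusted p of 0.667. Among the other subunits, the second catalytic gene Csnk2a2 had a shared log2 difference of 1.55 (SE 1.06) and the regulatory gene Csnk2b of 0.38 (SE 0.50), with edgeR adjusted p of 0.902 and 0.968. Csnk2a2 differed by 2.98 in the shRNA arm and 0.15 in the pcDNA4c arm, and Csnk2b by 0.24 and 0.52.

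Photoreceptor RNA was present in every library. The arrestin gene Sag and the phosducin gene Pdc had counts in all 12. The S-cone opsin gene Opn1sw was at 0 in 6, the whole of shRNA Control and of pcDNA4c mCsnk2a1. The listed cone gene Gnb3 had a mean of 157 CPM with mCsnk2a1 and 147 CPM with Control. These values do not separate rods from cones. Total estimated counts were 2296060 to 3567120 with mCsnk2a1 and 1608930 to 2017620 with Control, so every construct library was deeper than every control library (two-sided exact permutation within arms, 400 relabellings, p = 0.005, the smallest this design can give). Levels below are CPM on a scale adjusted by TMM, the trimmed mean of M values, and each difference is mCsnk2a1 minus Control.

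Of 52962 genes in the table, 20267 had enough counts to test, and 8 passed an adjusted p of 0.05 in edgeR's quasi-likelihood test, 0.0395% of those tested. The 5 that were higher with mCsnk2a1 (0.0247%) included the ribosomal protein gene Rpl26, the mitochondrial 12S ribosomal RNA mt-Rnr1, and the 7SL RNA genes Rn7s1 and Rn7s2. The 3 that were lower (0.0148%) were the lysozyme gene Lyz2, the coenzyme Q gene Coq4 and Gm22513, a copy of the U1 small nuclear RNA. All 8 had the same sign in both arms, and none passed 0.05 in the test of a difference between the arms. Of the 8, 5 also passed in the pcDNA4c arm taken alone, where 18 genes did (0.0888%), and 0 in the shRNA arm, where 0 of 20267 genes passed and 1726 had an unadjusted p under 0.05. At an unadjusted p under 0.05 the shared difference was higher for 546 genes (2.69%) and lower for 855 (4.22%).

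**Figure D1:**
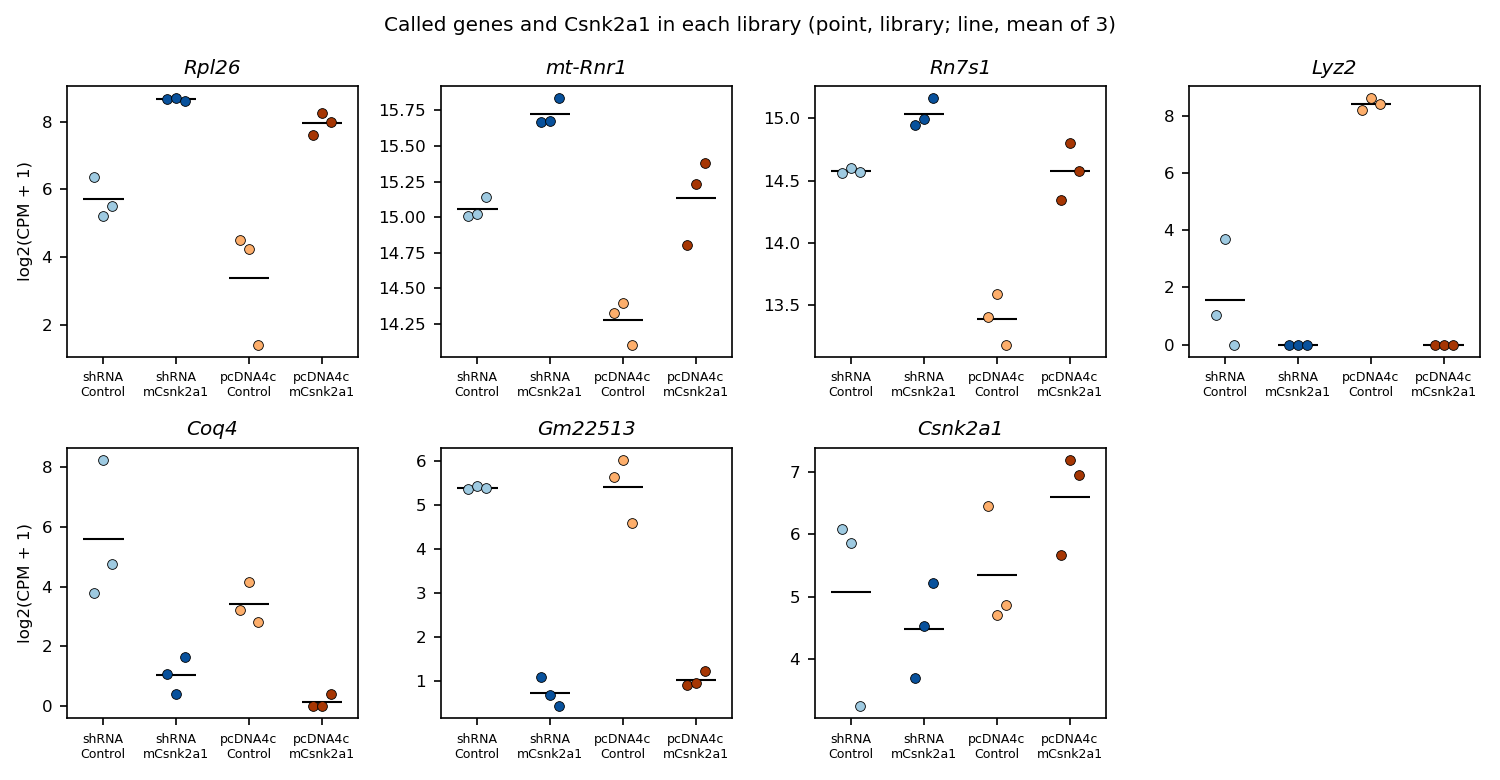
Level of 6 of the 8 genes that passed, and of Csnk2a1, in each library, as log2(CPM + 1) on the vertical axis for the 4 groups. Points are libraries and lines are means of 3. Rn7s2 has the same values as Rn7s1. The mCsnk2a1 points lie above the Control points of their arm for Rpl26, mt-Rnr1 and Rn7s1 and below them for Coq4 and Gm22513, while Csnk2a1 overlaps. Lyz2 is at 0 in all mCsnk2a1 libraries, highest in pcDNA4c Control and lower in shRNA Control, where 1 library is at 0.

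Genes of rod phototransduction lay above 0. This is the cascade in which light turns on transducin, transducin turns on the phosphodiesterase PDE6, and the fall in cyclic GMP closes the cation channel of the outer segment. Of 21 listed genes 20 were tested, and all 20 had a positive shared difference, against 44.6% of all genes tested. Of the 20, 11 had an unadjusted p under 0.05, against 2.69% of all genes on the higher side. That share grew with level, to 202 of 1568 genes from 100 to 500 CPM and 27 of 114 from 500 CPM. The list had a median log2 difference of 0.70, with medians of 1.07 in the shRNA arm and 0.46 in the pcDNA4c arm, against -0.15 for all genes. All 20 were above 0 in the shRNA arm and 16 in the pcDNA4c arm. The count of 20 was the same with DESeq2 size factors, with mitochondrial genes left out, at equal depth and with library size alone. It was 19 of 20 without shRNA mCsnk2a1 2, shRNA Control 2, shRNA Control 3 or pcDNA4c mCsnk2a1 2. As a share of counts, the list took 0.641 to 1.56% with mCsnk2a1 and 0.681 to 0.931% with Control. The exact permutation p was 0.02, and 0.0338 adjusted over the library measures. The lowest share, in pcDNA4c mCsnk2a1 1, lay below every control library. The summed level was 13949 to 17153 CPM in shRNA mCsnk2a1 and 6724 to 8958 CPM in shRNA Control, without overlap. In the pcDNA4c arm the sides overlapped, at 6435 to 13627 CPM with mCsnk2a1 and 6381 to 8102 CPM with Control.

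Transducin relays the light signal to PDE6. Its rod alpha subunit gene Gnat1 stood at 287, 303 and 373 CPM against 91.3, 113 and 86.8 CPM in the shRNA arm. Among pcDNA4c libraries it stood at 149, 154 and 137 CPM against 43.8, 100.0 and 101 CPM. All 6 construct libraries lay above all 6 controls, as for 40 genes higher (0.197% of those tested) and 95 lower (0.469%), but the difference did not pass (log2 1.29, SE 0.36, edgeR adjusted p 0.401). The beta subunit gene Gnb1 did not pass either (log2 1.04, SE 0.25, edgeR adjusted p 0.254), with arm differences of 0.89 and 1.20, and the gamma subunit gene Gngt1 differed by 1.18 in the shRNA arm and 0.25 in the pcDNA4c arm.

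No gene of the effector, the channel or the shut-off proteins passed. For PDE6 the shared log2 differences were 0.61 for Pde6a, 0.78 for Pde6b and 0.44 for the inhibitory subunit gene Pde6g. Pde6a differed by 1.43 in the shRNA arm and -0.21 in the pcDNA4c arm, Pde6b by 0.76 and 0.80, and Pde6g by 0.77 and 0.12. The channel subunit genes Cnga1 and Cngb1 differed by 0.98 and 0.50, and the exchanger gene Slc24a1, whose product removes calcium from the outer segment, by 1.69 with 2.90 in the shRNA arm and 0.50 in the pcDNA4c arm. Of the proteins that end the response, the arrestin gene Sag differed by 0.68 and the photoreceptor kinase gene Grk1 by 0.33. The recoverin gene Rcvrn differed by 1.02 and did not pass either. Within both arms the construct and control libraries did not overlap for 5 members, all higher and among them Gnat1, Gnb1, Rcvrn and Cnga1, a pattern seen for 80 genes higher (0.395%) and 179 lower (0.883%).

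**Figure D2:**
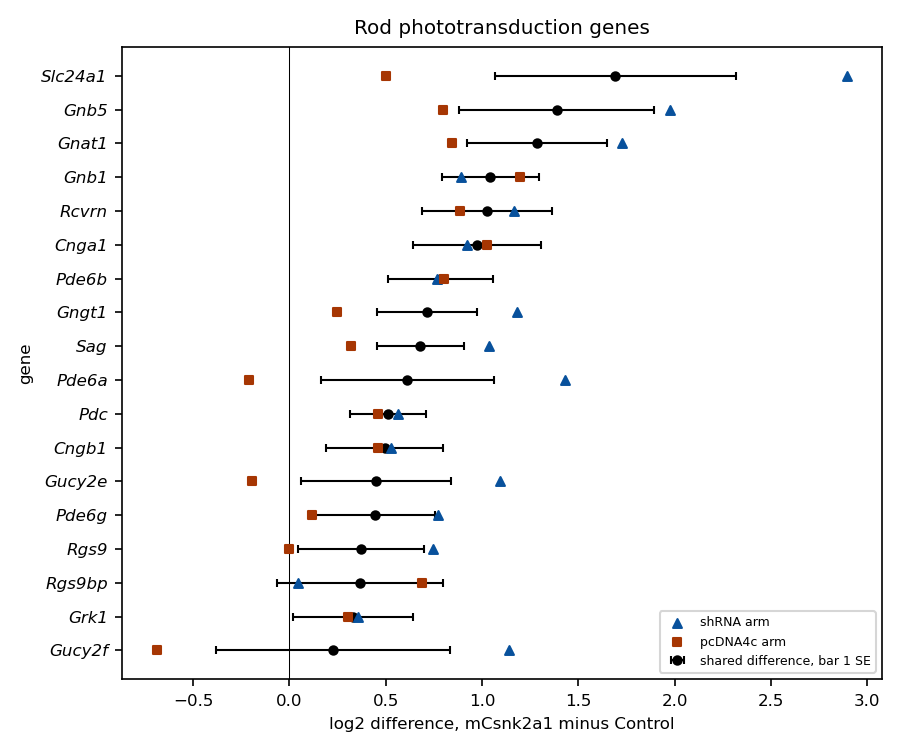
Log2 difference, mCsnk2a1 minus Control, on the horizontal axis for 18 rod phototransduction genes, ordered by the shared difference (black, bar 1 SE), with the shRNA arm as triangles and the pcDNA4c arm as squares. The member with an SE of 4.22 is left out. Shared differences run from 0.23 to 1.69, and the triangles lie mostly to the right of the squares.

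These values stood beside a trend with level. Genes with a mean of 100 to 500 CPM, where 10 of the 20 lie, had a median shared log2 difference of 0.24 and 65.6% of them were positive, against -1.30 and 29.1% below 5 CPM. Genes below 5 CPM could be kept for testing through 1 group alone. Libraries with mCsnk2a1 also held more RNA of genes that mark bipolar cells, the interneurons that rods contact, in amounts given further below. Whether that RNA has a part in the rod values was not tested. Whether fewer cells of a type or less RNA per cell lies behind a level cannot be told apart in such libraries.

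Upstream sequence was examined because these genes share the regulators NRL and CRX. RefSeq promoters (GRCm38.p6) were used with 1 chromosome left out, and covered 14 of the 21 listed genes. The 250 bases before the start site were searched on both strands for the CRX core TAATCC (reverse complement GGATTA). They were also searched for TGCTGA (reverse complement TCAGCA), the core of the NRL site. The CRX core was present in 8 of 14 (57.1%), against 6.3% of the 32851 promoters searched. The NRL core was present in 3 of 14 (21.4%), against 16.1%, and both together in 1, Sag. A match is a description of the letters, not of a bound site. Shown are the promoter with both motifs and 3 with one of them, each 5′ to 3′ on the gene's strand with the matches in capitals: Sag at chr1:87803430-87803679 (+), Cnga1 at chr5:72642753-72643002 (-), Gngt1 at chr6:3993758-3994007 (+) and Pde6b at chr5:108388123-108388372 (+).
Sag: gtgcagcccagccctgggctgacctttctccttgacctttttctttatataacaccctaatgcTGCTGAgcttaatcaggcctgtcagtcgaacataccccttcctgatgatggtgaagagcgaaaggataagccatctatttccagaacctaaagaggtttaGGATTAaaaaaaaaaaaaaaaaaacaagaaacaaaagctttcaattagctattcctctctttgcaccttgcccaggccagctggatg
Cnga1: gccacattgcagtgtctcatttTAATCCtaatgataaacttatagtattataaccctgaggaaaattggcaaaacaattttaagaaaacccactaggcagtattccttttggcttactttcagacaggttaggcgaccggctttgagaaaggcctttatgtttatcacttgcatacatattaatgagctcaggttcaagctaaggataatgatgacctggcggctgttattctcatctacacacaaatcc
Gngt1: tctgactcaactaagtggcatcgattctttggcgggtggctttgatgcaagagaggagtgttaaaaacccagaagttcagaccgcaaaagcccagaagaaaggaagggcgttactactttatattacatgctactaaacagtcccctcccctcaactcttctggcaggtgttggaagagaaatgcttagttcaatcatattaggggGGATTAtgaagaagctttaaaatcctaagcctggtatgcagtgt
Pde6b: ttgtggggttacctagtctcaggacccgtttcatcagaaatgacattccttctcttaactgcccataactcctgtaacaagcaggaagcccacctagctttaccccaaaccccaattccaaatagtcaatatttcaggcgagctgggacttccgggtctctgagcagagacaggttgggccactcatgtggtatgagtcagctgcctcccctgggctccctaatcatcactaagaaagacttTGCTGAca

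No regulator of the rod programme passed the test. Nrl had a shared log2 difference of 0.26 (SE 0.39), Nr2e3 of 0.09 (SE 0.29) and Crx of 0.37 (SE 0.24), with edgeR adjusted p of 0.968, 0.992 and 0.880. Crx stood at 860.1, 1220 and 1093 CPM against 587, 730.0 and 556 CPM in the shRNA arm, without overlap, and at 569.9, 805 and 1041 CPM against 815, 856 and 787 CPM in the pcDNA4c arm, with overlap. Of 19 photoreceptor transcription factors 17 had a positive shared difference, none passed, and the list had a median log2 difference of 0.27, with medians of 0.39 in the shRNA arm and 0.17 in the pcDNA4c arm.

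Outer segment and cilium genes were mixed. Of 27 tested, 18 were positive and 9 negative, none passed, and the list had a median log2 difference of 0.33, with medians of 0.63 in the shRNA arm and -0.10 in the pcDNA4c arm. The disc rim gene Prph2 differed by 0.72, the microtubule gene Rp1 by 0.61 and the cadherin gene Cdhr1 by 0.73. Pcdh15, a protocadherin gene, went the other way. It stood at 328, 203 and 223 CPM with mCsnk2a1 against 774, 460.3 and 484 CPM with Control in the shRNA arm, and at 146, 489 and 423 CPM against 715, 870.5 and 588 CPM in the pcDNA4c arm. The groups did not overlap in either arm, and the difference did not pass (log2 -1.11, SE 0.30, edgeR adjusted p 0.395). Among 21 genes of the photoreceptor synapse, 15 were positive (12 without shRNA mCsnk2a1 2) and none passed, with Snap25, a SNARE gene, at 0.92 and Syp, the synaptophysin gene, at 0.73. In the shRNA arm 16 of the 21 were positive, with a median of 0.65. The pcDNA4c arm had 10 positive and a median of -0.02, and 9 genes were positive in both arms.

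Rpl26 (ENSMUSG00000060938, chr11:68901583-68906989, + strand), a protein of the large ribosomal subunit, had the smallest p of all genes. It stood at 408, 411 and 386 CPM in shRNA mCsnk2a1 and at 80.9, 36.3 and 44.8 CPM in shRNA Control. In the pcDNA4c arm it stood at 192, 301 and 255 CPM with mCsnk2a1 and at 21.6, 18 and 1.66 CPM with Control. All 6 construct libraries lay above all 6 controls, and the shared difference was 11.5-fold (log2 3.52, SE 0.49, edgeR adjusted p 0.00370), with log2 differences of 2.89 in the shRNA arm and 4.17 in the pcDNA4c arm. Processed copies of the gene could share its reads. The 6 annotated Rpl26 pseudogenes reached at most 8.92 CPM in any library. These levels depend on how shared reads were assigned, and the part of such copies in the Rpl26 value was not tested. The call was lost in 1 of the alternatives, the fit with no vector term (edgeR adjusted p 0.0651).

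Rpl26 was the 1 ribosomal protein gene that passed. Of 78 tested, 62 were positive and 16 negative, and the list had a median log2 difference of 0.42, with medians of 0.35 in the shRNA arm and 0.40 in the pcDNA4c arm. Rpl21, of the same subunit, differed by 1.41 (SE 0.54) and did not pass. Groups did not overlap in both arms for 4 of the 78, all higher, against 0.395% of all genes higher and 0.883% lower.

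Mitochondrial RNA took a larger share of the counts with mCsnk2a1. The share was 11.4, 10.1 and 10.8% in shRNA mCsnk2a1 and 8.58, 8.26 and 8.69% in shRNA Control. With the pcDNA4c plasmids it was 9.54, 11.5 and 12.8% with mCsnk2a1 and 8.17, 8.64 and 7.31% with Control. No construct library overlapped a control (mean difference 2.75 percentage points, exact permutation p = 0.005, adjusted over 22 library measures 0.0138).

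One ribosomal RNA of the organelle passed the test. mt-Rnr1 (ENSMUSG00000064337, mitochondrial chromosome, 70 to 1024), the RNA of the small mitochondrial ribosomal subunit, stood at 52073, 52334 and 58473 CPM with mCsnk2a1 and at 32988, 33306 and 36211 CPM with Control in the shRNA arm. Among pcDNA4c libraries it stood at 28576, 38510 and 42617 CPM and at 20517, 21582 and 17626 CPM. Groups did not overlap within either arm, and the shared difference was 1.71-fold (log2 0.77, SE 0.11, edgeR adjusted p 0.00389), with log2 differences of 0.67 in the shRNA arm and 0.88 in the pcDNA4c arm. The large subunit RNA mt-Rnr2, looked up after its values were seen, differed by 0.38 (SE 0.11, edgeR adjusted p 0.401). The mt-Rnr1 call was lost with DESeq2 (adjusted p 0.0616), limma voom (adjusted p 0.967), no vector term (edgeR adjusted p 0.314) and transcript values (limma adjusted p 0.212).

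Messages encoded by the mitochondrial genome lay above 0 but did not pass. Of 12 tested, 11 had a positive shared difference, 8 of them with an unadjusted p under 0.05 (2.69% of all genes) and none past the adjusted threshold, and the list had a median log2 difference of 0.78, with medians of 0.22 in the shRNA arm and 1.26 in the pcDNA4c arm. Of all genes tested, 202 of 1568 from 100 to 500 CPM and 27 of 114 from 500 CPM were higher at an unadjusted p under 0.05. mt-Nd2, a subunit of complex I, stood at 1392, 2410 and 2543 CPM with mCsnk2a1 and at 589, 519 and 471 CPM with Control in the pcDNA4c arm, against 1199, 1213 and 987 CPM and 833, 1028 and 795 CPM in the shRNA arm. Its arm differences were 2.01 and 0.36, and the test of their difference gave an edgeR adjusted p of 0.361. The share of mitochondrial messages and transfer RNAs moved by -0.0195 percentage points in the shRNA arm and 1.40 in the pcDNA4c arm (exact permutation p = 0.0600 for the shared difference), while that of mitochondrial ribosomal RNA moved by 2.28 and 1.84. Nuclear genes of oxidative phosphorylation were positive in 56 of 75, with a median log2 difference of 0.35, with medians of 0.29 in the shRNA arm and 0.32 in the pcDNA4c arm, and none passed. Those with the smallest p were Atp5h of the ATP synthase at 0.76 and Uqcrb of complex III at 0.92.

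7SL RNA, the scaffold of the signal recognition particle that docks ribosomes at the endoplasmic reticulum, was higher in both arms. Its genes Rn7s1 (chr12:69159295-69159594, + strand) and Rn7s2 (chr12:69361182-69361481, - strand) have the same 300 bases in GENCODE M21, so their reads could not be told apart and each was given the same value. In the shRNA arm each stood at 31503, 32640 and 36632 CPM with mCsnk2a1 and at 24136, 24785 and 24256 CPM with Control. In the pcDNA4c arm each stood at 20768, 28582 and 24473 CPM and at 10804, 12308 and 9290 CPM. Within both arms the groups did not overlap, and the shared difference was 1.77-fold (log2 0.82, SE 0.14, edgeR adjusted p 0.0121), with log2 differences of 0.46 in the shRNA arm and 1.19 in the pcDNA4c arm. The call was lost in 7 alternatives, library size alone among them (edgeR adjusted p 0.0944), in which the median of all genes moved from -0.15 to -0.32. Adjusted p was 0.99 with limma voom, 0.369 with no vector term (edgeR) and 0.331 on transcript values (limma). It was 0.103 with at least 50 counts in 3 libraries (edgeR), 0.0873 with DESeq2 and 0.0518 on the authors' CPM (limma). The RNA of ribonuclease P, Rpph1, differed by 0.26 (SE 0.17) and did not pass.

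Lyz2 (ENSMUSG00000069516, chr10:117277331-117282321, - strand), the lysozyme of macrophages, had no count in any of the 6 construct libraries. It stood at 295, 390.5 and 337 CPM in pcDNA4c Control and at 1.04, 11.9 and 0 CPM in shRNA Control. The difference thus rests mainly on 1 control group. Set against a floor of 3 counts over the 6 construct libraries, it was at least 988-fold lower with mCsnk2a1, at least 961-fold in the pcDNA4c arm and at least 12.5-fold in the shRNA arm (edgeR adjusted p 0.00394). The call was lost with no vector term (edgeR adjusted p 0.364), on the authors' CPM (limma adjusted p 0.0821) and on transcript values (0.212). The bounds cover counting error alone, and reads amplified by PCR without molecular identifiers are not independent molecules.

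Most other genes of microglia and macrophages lay on the same side of 0 as Lyz2. Of 20 listed, 18 were tested and 17 had a negative shared difference, 8 with an unadjusted p under 0.05 (4.22% of all genes), and 1 passed. The list had a median log2 difference of -4.05, with medians of -0.54 in the shRNA arm and -3.47 in the pcDNA4c arm, and these medians were the same with its 4 members at 0 on one side set to their bound. Those 4 lay below the shared median, so this setting says little about it. Its summed level was 2960 to 3574 CPM in pcDNA4c Control, 127 to 179 CPM in shRNA Control, 96.5 to 144 CPM in pcDNA4c mCsnk2a1 and 32.4 to 98.4 CPM in shRNA mCsnk2a1. Construct libraries lay below the controls of their arm in both arms, and the sums in pcDNA4c Control stood far above those of the other 9 libraries. C1qa, a complement gene, and Tyrobp, a signalling adaptor gene, were at 0 in all 9 of those and at 31.0, 69.5 and 63.2 CPM and 25.6, 30.0 and 18.3 CPM in pcDNA4c Control. Ctss, the gene of cathepsin S, was at 0 in all 6 construct libraries, at 213, 222 and 128 CPM in pcDNA4c Control and at 0, 0 and 17.6 CPM in shRNA Control, and did not pass (edgeR adjusted p 0.0605). Lyz2, C1qa, Tyrobp and Ctss, all among the 8, had enough counts to be tested only through pcDNA4c Control. Their negative sign was therefore fixed by the filter and adds nothing to the count of negative members. Cd68, of macrophage lysosomes, and Cx3cr1, the fractalkine receptor gene, did not overlap within either arm, with lower levels in the constructs, and did not pass. Cd68 was at 0 in 5 of the 6 construct libraries and at 26.4, 7.74 and 2.27 CPM in shRNA Control, and Cx3cr1 had arm differences of -2.36 and -0.82.

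Lysosomal genes had a negative median in the pcDNA4c arm and not in the shRNA arm. Of 24 lysosomal genes 16 were negative, none passed, and the list had a median log2 difference of -0.80, with medians of 0.12 in the shRNA arm and -1.19 in the pcDNA4c arm. The cathepsin gene Ctsl stood at 1089, 871 and 1028 CPM in pcDNA4c Control and at 7.44, 63.0 and 41.0 CPM in pcDNA4c mCsnk2a1, with 105, 91.1 and 97.0 CPM and 39.1, 55.1 and 92.0 CPM in the shRNA arm. Mmp12, a macrophage elastase gene, stood at 517, 493 and 375 CPM against 73.9, 53.3 and 20.8 CPM in the pcDNA4c arm and at 38.9, 289 and 69.8 CPM against 42.8, 20.3 and 47.8 CPM in the shRNA arm (log2 -2.54, SE 0.50, edgeR adjusted p 0.0605). The neuraminidase gene Neu1 lay below the controls without overlap in both arms (log2 -2.61, SE 0.92) and did not pass. The part that RNA of microglia has in these values was not tested.

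Coq4 (ENSMUSG00000026798, chr2:29787493-29797935, + strand), needed to make coenzyme Q in mitochondria, was nearly absent with mCsnk2a1. It stood at 1.13, 0.308 and 2.14 CPM in shRNA mCsnk2a1 and at 13.0, 305 and 26.1 CPM in shRNA Control. With the pcDNA4c plasmids it stood at 0, 0 and 0.336 CPM with mCsnk2a1 and at 8.36, 17.0 and 6.09 CPM with Control. All 6 constructs, with 11 counts in all, lay below all 6 controls, with 645 (log2 -6.33, SE 1.11, edgeR adjusted p 0.0199). The call was lost in 6 alternatives. Without shRNA Control 2, the highest library, the log2 difference was -5.03 and the edgeR adjusted p 0.379, and adjusted p was 0.0960 with limma voom, 0.129 with no vector term, 0.0685 with the replicate block, 0.128 on the authors' CPM and 0.383 on transcript values, where the log2 difference was -2.48.

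Gm22513 (ENSMUSG00000096349, chr12:54696782-54696945, + strand), named outside the rule because it is a predicted gene, is 1 of the annotated copies of U1, the small nuclear RNA that pairs with the start of introns. It stood at 1.13, 0.615 and 0.357 CPM in shRNA mCsnk2a1 and at 40.4, 42.3 and 40.8 CPM in shRNA Control. Among pcDNA4c libraries it stood at 0.875, 0.940 and 1.34 CPM with mCsnk2a1 and at 48.7, 64.5 and 23.3 CPM with Control. All 6 constructs lay below all 6 controls (log2 -5.57, SE 1.02, edgeR adjusted p 0.0325). Gm22513 differs from the copy Rnu1a1 at 1 of 164 bases, T60C, counted from 1 at the 5′ end of the RNA with the base of Rnu1a1 first. Both are shown from GENCODE M21, with that base in capitals.
Gm22513: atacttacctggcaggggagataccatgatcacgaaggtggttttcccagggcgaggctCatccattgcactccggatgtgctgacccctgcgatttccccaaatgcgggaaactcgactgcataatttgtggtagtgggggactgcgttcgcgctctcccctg
Rnu1a1: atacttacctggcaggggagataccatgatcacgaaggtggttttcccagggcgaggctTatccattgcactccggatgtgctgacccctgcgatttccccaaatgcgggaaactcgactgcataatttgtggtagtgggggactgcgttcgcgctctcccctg
The family as a whole did not share the difference. Summed over the 52 annotated genes with at least 80% identity to Gm22513, the level was 3486 to 4674 CPM in shRNA mCsnk2a1, 2252 to 2650 CPM in shRNA Control, 2115 to 2563 CPM in pcDNA4c mCsnk2a1 and 3782 to 4443 CPM in pcDNA4c Control, higher with the construct in 1 arm and lower in the other. Reads that do not cover the differing base cannot separate these copies, so the value of Gm22513 is uncertain. Its call was lost with 10 of the 12 libraries left out in turn, at edgeR adjusted p from 0.0538 to 0.221, and at equal depth (0.0698), with no vector term (0.0651) and with the replicate block (0.125).

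The genes with the next smallest p did not pass. Eno1, the glycolytic enolase gene, stood at 880.4, 681 and 1014 CPM against 382, 392 and 602 CPM in the shRNA arm and at 729, 898 and 736 CPM against 249.9, 160.0 and 235 CPM in the pcDNA4c arm, with all 6 constructs above all 6 controls (log2 1.39, SE 0.27, edgeR adjusted p 0.0605). Zmiz1, a transcriptional coregulator gene, had the same separation, at 177, 272 and 199 CPM against 44.6, 95.9 and 65.8 CPM and 140.0, 380.3 and 224 CPM against 59.5, 43.5 and 68.7 CPM (log2 1.88, SE 0.39, edgeR adjusted p 0.0969). Prox1, a homeodomain gene of horizontal cells and other retinal neurons, did not overlap in the pcDNA4c arm but did in the shRNA arm (arm differences 3.94 and 1.15, edgeR adjusted p 0.121). On the lower side Hmcn1, which encodes the matrix protein hemicentin, had values that ranged widely among the controls, from 9.84 to 925 CPM (log2 -5.59, SE 1.01, edgeR adjusted p 0.137). Srrm4os, Tmem179 and Slc17a2 were under 1 CPM in all 6 construct libraries, with edgeR adjusted p of 0.191, 0.227 and 0.254. Of 17 glycolytic enzymes 12 were positive and none passed, with a median log2 difference of 0.47, with medians of 0.09 in the shRNA arm and 1.13 in the pcDNA4c arm, and Pgam1 and Gapdh differed by 0.20 and 0.17 in the shRNA arm and by 1.73 and 1.13 in the pcDNA4c arm. Glycolytic genes such as Gapdh and Eno1 have near-identical processed copies that can share their reads, so their values are uncertain.

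Genes of bipolar cells took a larger share of the counts with mCsnk2a1. Their summed level was 1510 to 2849 CPM in shRNA mCsnk2a1 and 1131 to 1234 CPM in shRNA Control, and 1794 to 2235 CPM in pcDNA4c mCsnk2a1 and 666 to 741 CPM in pcDNA4c Control. As a share of counts it was 0.142 to 0.260% with mCsnk2a1 and 0.0671 to 0.129% with Control, without overlap (exact permutation p = 0.005, adjusted over 22 library measures 0.0138). Of 19 genes 16 were positive and none passed, with a median log2 difference of 1.02, with medians of 0.83 in the shRNA arm and 1.63 in the pcDNA4c arm. The homeobox gene Isl1, the channel gene Trpm1 of ON bipolar cells and the factor gene Neurod4 differed by 1.98, 2.12 and 1.13.

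Markers of the other retinal cell types were less even. Müller glia genes were positive in 10 of 15, with a median log2 difference of 1.03 that was 0.38 without pcDNA4c mCsnk2a1 3 and 0.53 without pcDNA4c mCsnk2a1 1, and their summed share of counts overlapped between the sides (exact permutation p = 0.610). The share moved in opposite directions, by 0.0559 percentage points in the shRNA arm and -0.0869 in the pcDNA4c arm. The summed level was 1187 to 1953 CPM in shRNA mCsnk2a1 and 618 to 1061 CPM in shRNA Control. It was 699 to 755 CPM in pcDNA4c mCsnk2a1 and 1268 to 1655 CPM in pcDNA4c Control. Within the list, Glul, the glutamine synthetase gene, differed by 1.23 and 1.47 in the 2 arms and the glutamate transporter gene Slc1a3 by 1.94 and 0.25. Apoe, also a member, differed by 1.46 and -3.43. Cone genes were positive in 9 of 15, in 6 without any 1 of the 3 shRNA Control libraries or with library size alone, in 11 in the shRNA arm and 4 in the pcDNA4c arm, with arm medians of 1.18 and -0.99. Opn1sw stood at 12.4, 28.9 and 7.84 CPM in shRNA mCsnk2a1 and at 0 in all 3 shRNA Control libraries, whereas it was at 0 in all 3 pcDNA4c mCsnk2a1 libraries and at 23.1, 42.0 and 2.77 CPM in pcDNA4c Control. The cone arrestin gene Arr3 overlapped in both arms (log2 0.43, SE 1.66). Shares of ganglion cell, pigment epithelium, vascular and progenitor genes overlapped between the sides, at exact permutation p of 0.92, 0.580, 0.675 and 0.490. The share of amacrine and horizontal cell genes was 0.0554 to 0.106% with mCsnk2a1 and 0.0272 to 0.0620% with Control (exact permutation p = 0.0250, adjusted 0.0393). Most of that difference came from Prox1, at a mean of 291 CPM with mCsnk2a1 and 74.9 CPM with Control, and from Chat, an acetylcholine synthesis gene named after its values were seen, at 81.7 and 12.8 CPM. Of the 12 genes tested 7 were positive and none passed, with a median of -0.09 in the shRNA arm and 0.64 in the pcDNA4c arm, and the factor gene Onecut2 differed by -1.53.

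**Figure D3:**
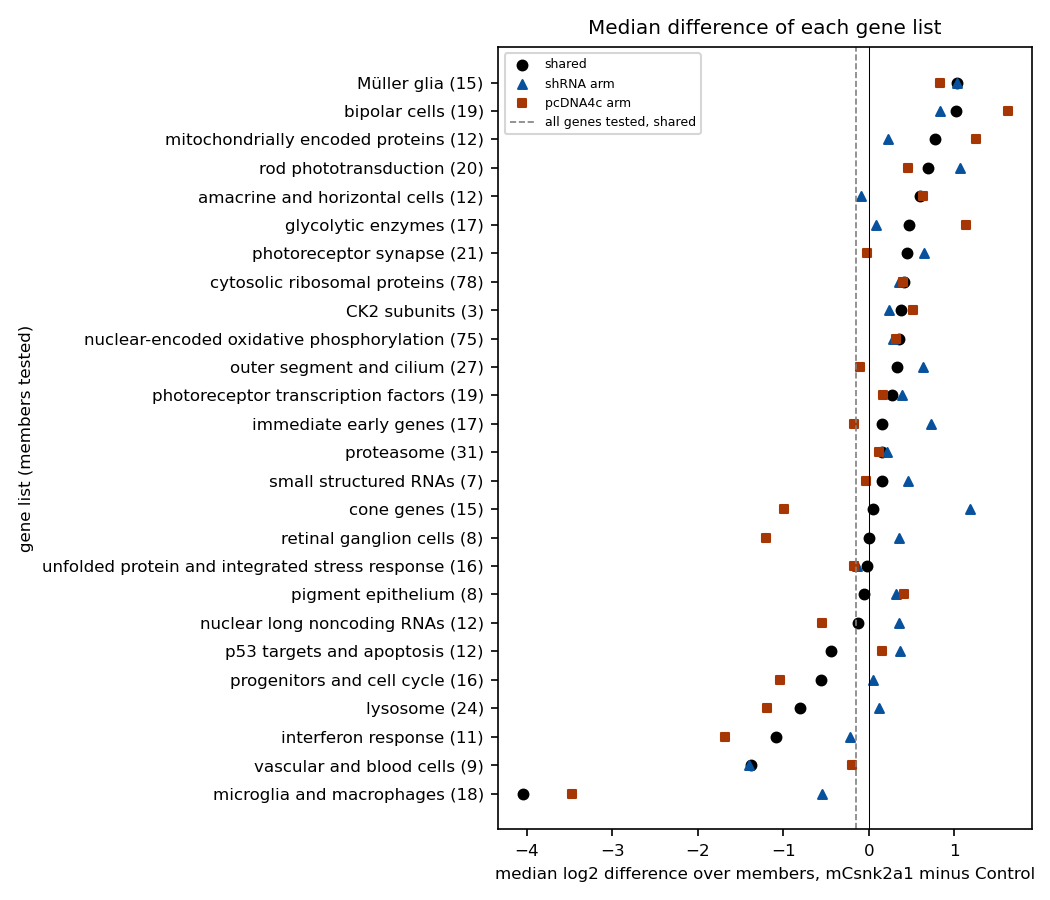
Median log2 difference, mCsnk2a1 minus Control, over the tested members of each of 26 gene lists, for the shared difference (black), the shRNA arm (triangles) and the pcDNA4c arm (squares), with the number of members in brackets and the median of all genes, -0.15, as a dashed line. Müller glia, bipolar cells, mitochondrial proteins and rod phototransduction lie at the top, and microglia at the bottom with a median of -4.05.

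Libraries with mCsnk2a1 held fewer kinds of RNA. With every library thinned to 1609099 counts, 20052, 17449 and 16908 genes were detected in shRNA mCsnk2a1 and 20439, 20352 and 22075 in shRNA Control. In the pcDNA4c arm 18368, 15373 and 16228 were detected with mCsnk2a1 and 23196, 22401 and 25245 with Control. No construct library overlapped a control, and the mean difference was -4888 genes (exact permutation p = 0.005, adjusted 0.0138). The 100 genes with the most counts in a library took 27 to 32% of them with mCsnk2a1 and 25.6 to 27.6% with Control (exact permutation p = 0.0100).

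More genes were detected in controls alone than in constructs alone. At equal depth, 8641 genes were detected in at least 1 control and no construct, and 2858 in at least 1 construct and no control. At stricter limits, 133 genes were detected in at least 5 controls and in none of the 6 constructs, 86 of them protein-coding and 34 long noncoding RNAs, and the reverse held for 1 gene, Tmem246. Those found in all 6 controls and no construct numbered 25, and the reverse held for 0. Among the 25, Tmem179 had 215 thinned counts over the 3 shRNA Control libraries and 16 over the 3 pcDNA4c Control libraries, the complement gene Hc had 64 and 84, and the endothelin receptor gene Ednrb had 50 and 36. These 3 are given as examples and were chosen after their values were seen. None of them passed in the test of all genes, where Ednrb had an edgeR adjusted p of 0.401 and Hc of 0.320. The median shared log2 difference rose with level, from -1.30 below 5 CPM over -0.37 from 5 to 20 CPM and 0.06 from 20 to 100 CPM to 0.24 from 100 to 500 CPM, and was 0.10 from 500 CPM. A gene with a low mean could be kept for testing through 1 group alone, so the lowest band is a selected set. The median over all genes moved with the filter. It was -0.15 in the main fit, -0.52 with no filter and 0.05 with at least 50 counts in 3 libraries.

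Long noncoding RNAs, many of which stay in the nucleus, took a smaller share. Their share was 7.87, 6.56 and 6.81% in shRNA mCsnk2a1 and 9.01, 9.12 and 9.85% in shRNA Control. With the pcDNA4c plasmids it was 8.65, 6.03 and 6.87% with mCsnk2a1 and 9.46, 8.78 and 9.94% with Control. No construct library overlapped a control, and the share fell by 2.23 percentage points (exact permutation p = 0.005, adjusted 0.0138), or by 2.02 without Gm26917, the RNA with the largest drop. The protein-coding share overlapped between the sides (exact permutation p = 0.935). Among 12 well-known nuclear RNAs 7 were negative (4 without pcDNA4c mCsnk2a1 1), none passed, and Kcnq1ot1 and Snhg14, RNAs of imprinted clusters, differed by -0.42 and -0.61, whereas Miat differed by 1.68. The arms went opposite ways for this list. In the shRNA arm 8 of the 12 were positive, with a median of 0.36, and in the pcDNA4c arm 4 were, with a median of -0.54.

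**Figure D4:**
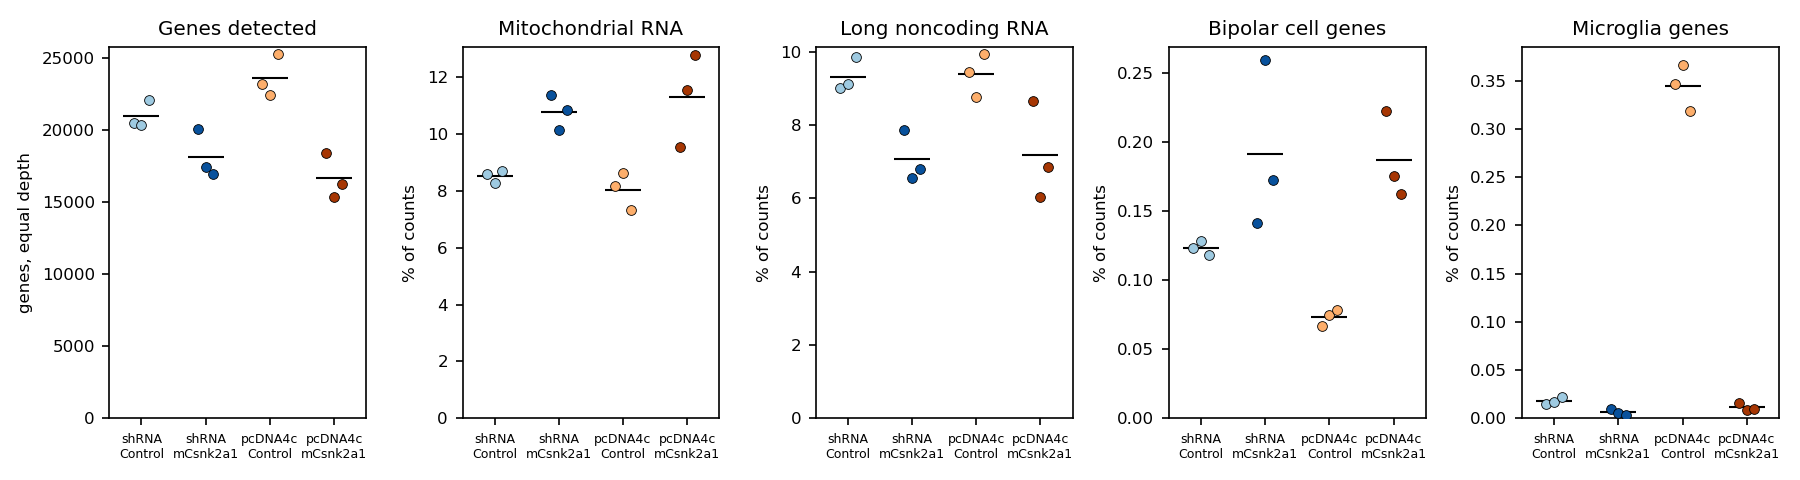
Number of genes detected at equal depth and share of counts (percent) of mitochondrial RNA, long noncoding RNA, bipolar cell genes and microglia genes in each library, by group. Points are libraries and lines are means of 3. In the first 4 panels all 6 mCsnk2a1 libraries lie on 1 side of all 6 Control libraries, and in the last the pcDNA4c Control libraries stand above the other 9.

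Across all genes the 2 arms had little in common. Of the 20267 genes, 52.8% had the same sign in both arms, and 58.1% of the 4129 genes with a mean of at least 50 CPM. The Spearman correlation of the 2 arm differences across genes was 0.055 over all and 0.129 over those 4129, as a description of genes that share libraries and are not independent replicates. Groups were separated in both arms in the same direction for 259 genes and in opposite directions for 190. Between the vectors, 10 genes differed (0.0493%). The spread between libraries, as edgeR's biological coefficient of variation, was 1.47 among the constructs and 1.04 among the controls.

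**Figure D5:**
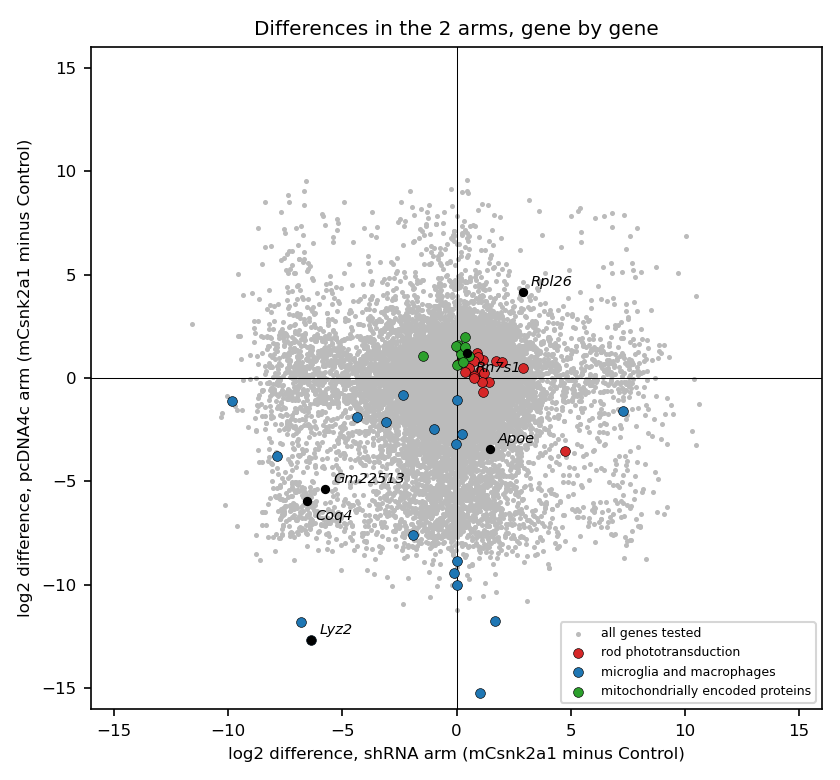
Log2 difference, mCsnk2a1 minus Control, in the pcDNA4c arm against that in the shRNA arm for each of the 20267 genes tested (grey), with rod phototransduction, microglia and mitochondrially encoded genes in colour and 6 genes named. Rod genes lie mostly to the upper right, microglia genes lie low in the pcDNA4c arm, and Apoe lies at 1.46 in one arm and -3.43 in the other.

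The difference depended on the vector for 3 genes (edgeR adjusted p under 0.05, 0.0148% of those tested). Apoe, an apolipoprotein gene of glia and macrophages, stood at 178, 246 and 412 CPM with mCsnk2a1 against 116, 135 and 53.9 CPM with Control in the shRNA arm, and at 75.2, 108 and 119 CPM against 1231, 1096 and 926 CPM in the pcDNA4c arm. Constructs lay above controls in the first and below them in the second, by 1.46 and -3.43 on the log2 scale (edgeR adjusted p of the difference 0.00171). Psap, which encodes the precursor of the saposins of lysosomes, differed by 0.51 and -3.08, and the long noncoding RNA Gm26917 by 0.51 and -2.44 (edgeR adjusted p of the difference 0.0338 for both). Without pcDNA4c Control 1 neither of the last 2 passed (edgeR adjusted p 0.140 for Psap and 0.0823 for Gm26917). All 3 had their highest levels in pcDNA4c Control, the group with the largest summed level of microglia genes, and the part of that RNA in these values was not tested.

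Lists of cellular stress and turnover showed no called gene. Immediate early genes were positive in 11 of 17, but in 7 without shRNA Control 1, without shRNA Control 2 or with library size alone. Genes of the unfolded protein and integrated stress response were positive in 8 of 16, p53 targets and apoptosis genes in 4 of 12, interferon response genes in 3 of 11 (5 without shRNA Control 3) and proteasome genes in 21 of 31 (15 with library size alone). In this order, the median log2 differences of the 5 lists were 0.16, -0.02, -0.44, -1.09 and 0.15. The medians were 0.73, -0.14, 0.36, -0.22 and 0.21 in the shRNA arm. In the pcDNA4c arm they were -0.18, -0.17, 0.15, -1.69 and 0.12. The p53 list thus had a negative shared median and a positive median in both arms, so its shared median describes neither arm. The early gene Fosb differed by 3.81 in the shRNA arm and 0.77 in the pcDNA4c arm, the chaperone gene Pdia4 differed by 0.78, the p53 target Trp53inp1 by 1.01, and Psmb1 of the proteasome core by 0.90. The interferon-induced gene Ifit3 was at 0 in all 6 constructs and in 3 of the 6 controls.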

How the data were processed

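The deposited table of estimated counts per gene was tested, after rounding, in all 12 libraries. Per the submitters' processing notes, the tools were kallisto 0.45.0 and edgeR 3.28 and the build was mm10, with no role stated for either tool. The annotation, filters and strand setting of the counting are not given in the sources used here, so a gene and its antisense partner cannot be told apart. The authors also deposited TPM per transcript and a signal table, in which the counts are scaled to a CPM by 1 constant per library. That table had columns for 11 of the 12 libraries, without pcDNA4c mCsnk2a1 1. Both served as alternatives, on the log2(value + 1) scale.

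Libraries were grouped by title. Genes were kept by filterByExpr (minimum count 10), scaled by TMM and fitted with edgeR 4.0.16 in R 4.3.3 (robust quasi-likelihood, vector plus construct), with Benjamini-Hochberg adjustment over 20267 genes and a threshold of 0.05. The 4-group fit gave each arm and the difference between arms. Library measures were tested by exact permutation within arms. Alternatives used DESeq2 1.42.0, limma 3.58.1, other scalings, filters and designs, and each library left out. Scripts were tested on simulated data.

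Genes named in the text were, per direction, up to 15 that passed with 1 sign in both arms, leaving out predicted genes and pseudogenes, filled to 8 by the next smallest p. Added to these were 12 genes of CK2, rods and cones, up to 4 members of each gene list by p, and the 4 with the smallest p for the difference between arms. All members of the rod phototransduction, mitochondrially encoded protein and microglia lists were also open to naming. Members and lists were chosen with earlier results of these data known. Some genes that met the rule are not reported here.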

Additional observations from a re-analysis of the deposited data

Results flagged for a closer look

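Of the differences below, 3 passed the test of the difference between the arms. The log2 difference, pcDNA4c arm minus shRNA arm, was -4.88 for Apoe, -3.60 for Psap and -2.95 for Gm26917. Psap lost its call with DESeq2 size factors (edgeR adjusted p 0.0626) and without any 1 of shRNA Control 1, shRNA Control 3 and the 3 pcDNA4c Control libraries (edgeR adjusted p 0.0527 to 0.140). Gm26917 lost its call with DESeq2 size factors (edgeR adjusted p 0.0626), with only genes of 50 counts or more (0.152) and without pcDNA4c Control 1 (0.0823).

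The summed share of cone genes was higher in every shRNA mCsnk2a1 library than in every shRNA Control library and lower in every pcDNA4c mCsnk2a1 library than in every pcDNA4c Control library. The difference between the arms was -0.0421 percentage points of counts, and it was not tested.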

How the results depend on the processing

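Genes higher and lower with mCsnk2a1 numbered 5 and 3, against 37 and 99 with DESeq2, 3 and 12 with limma voom, 38 and 35 with no filter on low counts, 0 and 0 with no vector term (edgeR; 0 genes passed), 9 and 7 with 4 group means, and 15 and 17 on the authors' CPM, from which pcDNA4c mCsnk2a1 1 was missing. The count of higher genes was 3 with library size alone, 2 with at least 50 counts in 3 libraries and 1 on TPM. With 1 library left out, 5 to 9 genes were higher and 2 to 6 lower. Of the 8 calls, DESeq2 kept 5, limma voom 3, the authors' CPM 4 and TPM 2.

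Genes whose difference depended on the vector numbered 3, against 1 with DESeq2 size factors, 87 with no filter, and 1 to 13 with 1 library left out (1 without pcDNA4c Control 1, 13 without shRNA mCsnk2a1 2). Genes that differed between vectors numbered 10, against 63 with no filter, 6 at equal depth, and 6 to 12 with 1 library left out. The cause of these changes was not tested.

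With the replicate number as a block, 8 genes were higher and 3 lower, 6 of the 8 calls were kept, and the vector-dependent genes numbered 30. Libraries of the same number did not deviate together within arms (correlations -0.040 to 0.0087 across genes), so the numbers were not taken to pair the samples.

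Directions turned for genes that did not pass. Csnk2a1 was -0.042 (log2) with library size alone and ranged from -0.16 to 0.46 with 1 library left out. Csnk2a2 was -0.023 with limma voom and -0.018 on the authors' CPM. Nr2e3 was -0.090 with library size alone and ranged from -0.061 to 0.30 with 1 library left out. Nrl was -0.011 on TPM and ranged from -0.10 to 0.51 with 1 library left out, and Arr3 from -1.04 to 1.79. Opn1sw was 0.13 with the block, 0.40 on the authors' CPM and 0.0071 on TPM, and ranged from -4.93 to 3.95 with 1 library left out. The cause was not tested.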
